A study of Mus musculus with 12 samples.

Results

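The genes described here encode 10 digestive enzymes of the intestinal brush border: the sugar-splitting enzymes Lct, Treh, Sis and Mgam, the alkaline phosphatases Alpi and Akp3, the meprin subunits Mep1a and Mep1b, and the exopeptidases Anpep and Dpp4. They were chosen by name as enzymes of the enterocyte surface, and all 10 were found among the 23284 genes of the count table. All 10 also passed the filter on low counts, and that filter kept 15866 genes. RNA of the terminal ileum was sequenced from 12 mice, 1 library per mouse, in 4 groups of 3. These were wild type C57BL/6 mice, mice labelled Rag1-/-, which lack a recombinase of antigen receptor genes and form no mature T or B cells, and 2 groups of Tcra-/- mice, which lack the T cell receptor alpha chain. The co-housed Tcra-/- mice had lived for 4 to 8 weeks in the cages of wild type mice, and the separately housed Tcra-/- mice had not. Single mice are named as labelled, with TCRaCox, TCRaSepx, WTB6x or RAG1x before the number. All mice came from Taconic and were kept free of specific pathogens. Their ages are not given in the labels, which state the sex only for the co-housed mice, as male. The design text states 2 comparisons, Rag1-/- against wild type and co-housed against separately housed Tcra-/- mice, at a false discovery rate of 1%. How many cages each group filled is not stated, so p-values of every comparison measure the spread among mice and not among cages. Genotype or housing can therefore not be told apart from cage.

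Enterocytes carry a dense brush border of microvilli, and the last steps of digestion take place on its surface. Disaccharidases there release single sugars from starch fragments, sucrose, lactose and trehalose, and peptidases trim short peptides, so that transporters in the same membrane can take up the products. Intestinal alkaline phosphatase is known for removing phosphate from bacterial lipopolysaccharide, and meprins for cleaving proteins at the cell surface and in mucus. Lactase is highest in the suckling jejunum and falls after weaning, and most of these enzymes are made by mature villus enterocytes rather than in the crypt. In whole tissue, fewer cells of a type and less RNA per cell cannot be told apart.

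The sequences before the start sites of 6 genes are shown because they lie upstream of the genes the results turn on: Lct, Treh and Alpi, which were lower in both stated comparisons, Sis, which was lower in 1 of them, its relative Mgam, and Anpep, the most abundant. RefSeq start sites on GRCm38.p6 gave such a window of 250 bases for 9 of the 10 genes, and no window was taken for Mep1b. Each window is printed 5' to 3' on the strand of its gene, and it ends at the base before the start site. Capitals mark matches, on either strand, to letters of 4 known binding motifs of intestinal transcription factors: GTTAAT (part of an HNF1 site), TTTAT (CDX), GATAA (GATA) and CAAAGT (part of an HNF4 site).
Lct, chr1:128328319-128328568, minus strand: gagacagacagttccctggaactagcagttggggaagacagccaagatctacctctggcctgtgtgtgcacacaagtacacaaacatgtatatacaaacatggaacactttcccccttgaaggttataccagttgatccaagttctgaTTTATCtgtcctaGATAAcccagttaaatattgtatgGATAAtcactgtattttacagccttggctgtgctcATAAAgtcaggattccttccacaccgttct
Treh, chr9:44672983-44673232, plus strand: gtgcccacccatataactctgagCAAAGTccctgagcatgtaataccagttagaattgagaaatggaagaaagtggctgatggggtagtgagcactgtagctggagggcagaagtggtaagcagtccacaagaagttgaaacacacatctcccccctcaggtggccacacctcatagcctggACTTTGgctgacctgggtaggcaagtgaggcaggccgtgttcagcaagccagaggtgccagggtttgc
Sis, chr3:72967864-72968113, minus strand: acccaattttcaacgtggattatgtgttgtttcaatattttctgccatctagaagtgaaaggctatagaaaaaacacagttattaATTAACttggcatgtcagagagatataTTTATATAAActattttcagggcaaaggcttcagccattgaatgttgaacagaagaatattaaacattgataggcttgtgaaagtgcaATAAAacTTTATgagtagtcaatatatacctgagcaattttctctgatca
Mgam, chr6:40628581-40628830, plus strand: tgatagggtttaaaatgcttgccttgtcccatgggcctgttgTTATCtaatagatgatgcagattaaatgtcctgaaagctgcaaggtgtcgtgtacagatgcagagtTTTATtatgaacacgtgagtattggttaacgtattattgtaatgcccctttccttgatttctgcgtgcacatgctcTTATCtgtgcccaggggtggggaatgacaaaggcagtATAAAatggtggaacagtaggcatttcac
Alpi, chr1:87101607-87101856, minus strand: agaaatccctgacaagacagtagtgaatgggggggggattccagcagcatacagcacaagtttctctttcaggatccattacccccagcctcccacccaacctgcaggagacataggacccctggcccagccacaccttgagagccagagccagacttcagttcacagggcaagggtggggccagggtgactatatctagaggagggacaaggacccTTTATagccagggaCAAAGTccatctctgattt
Anpep, chr7:79848211-79848460, minus strand: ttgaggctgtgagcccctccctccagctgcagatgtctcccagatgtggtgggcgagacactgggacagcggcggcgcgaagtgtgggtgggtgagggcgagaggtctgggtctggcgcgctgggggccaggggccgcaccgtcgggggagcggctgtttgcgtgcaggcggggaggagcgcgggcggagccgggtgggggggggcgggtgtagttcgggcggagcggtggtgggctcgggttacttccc

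The Lct window holds 3 GATAA and 2 TTTAT matches, and 1 of each overlap in the run TTTATC. Sis holds 4 TTTAT matches and 1 GTTAAT match, printed as ATTAAC because it reads on the other strand. Mgam holds 2 TTTAT and 2 GATAA matches. Alpi has 1 TTTAT and 1 CAAAGT match, and Treh has 2 CAAAGT matches, of which 1 is printed as ACTTTG. No match to any of the 4 was found in the Anpep window. Whether the transcripts counted here, on mm9, begin at the start sites used for these windows was not tested, for Anpep or the others. Among the 9 windows, TTTAT occurred in 5, GATAA in 4, CAAAGT in 4 and GTTAAT in 1. Of all 32851 RefSeq promoter windows of that length, 37.3% hold TTTAT, 22.6% GATAA, 12.6% CAAAGT and 6.43% GTTAAT. Windows of genes that were lower and of genes that were not called both hold TTTAT and GATAA. A match describes letters and is not evidence of a bound site.

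Total counts ran from 37061276 to 50581616 per library. Rag1 had 236 reads in the 3 mice labelled Rag1-/- and 0 in the other 9. Which part of the gene is deleted is not given, so these reads do not check the label. Summed B cell markers, which do follow it, were 2.13 to 2.79 CPM (counts scaled to a common library size) in mice labelled Rag1-/- and 149 to 183 in wild type mice. Ileal origin was checked against Fabp6, the ileal bile acid binding protein, at 2687 to 4108 CPM in all 12 libraries. Slc10a2, another gene of the ileal list, was at 170 to 312 CPM. Not all genes of that list were as even. Mean Cubn was 867 CPM in wild type and 1886 in separately housed mice, but 137 in mice labelled Rag1-/- and 137 in co-housed mice. For Amn these means were 120, 122, 62.7 and 63.0 CPM. The colon genes Car1 and Aqp8 were at 0.114 CPM or below, and the pancreatic lipase Pnlip had 0 reads.

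Per kilobase of merged exons and averaged over the groups, Anpep was the most abundant of the 10, at 2351 CPM per kb. Mep1b at 771, Mep1a at 552, Sis at 377 and Mgam at 319 followed. Dpp4 reached 203 and Alpi 199 CPM per kb. Treh, Lct and Akp3 were lowest, at 56.6, 47.0 and 0.186 CPM per kb. Together the 10 genes took 1.53 to 2.21% of the scaled counts of a library. Anpep alone made up 36.0 to 43.3% of the members' summed CPM in wild type and separately housed Tcra-/- mice and 48.7 to 56.9% in the mice labelled Rag1-/- and co-housed Tcra-/- mice.

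A test for any difference among the 4 groups called 6 of the 10 genes, Alpi, Sis, Lct, Treh, Mep1a and Mep1b, where 41.7% of all tested genes were called (edgeR quasi-likelihood test, Benjamini-Hochberg adjusted p under 0.01 over all tested genes, as for every call and adjusted p here). In mice labelled Rag1-/- against wild type, 3 of the 10 were called lower, Lct, Treh and Alpi, and none higher. Of all tested genes, 11.5% were called lower and 9.42% higher, 20.9% in all. Without overlap between the groups, 5 members lay lower (those 3, Sis and Mep1a) and 2 higher (Anpep and Dpp4), beside 23.5% and 22.2% of all tested genes. In co-housed against separately housed Tcra-/- mice, 5 were called lower, the same 3 with Sis and Mep1a, and none higher. There 17.7% of all tested genes were called lower and 21.1% higher, 38.8% in all. Without overlap, 6 members lay lower (those 5 and Akp3) and 0 higher, beside 27.8% and 30.1% of all tested genes. The median log2 fold change of the 10 was -0.59 in the first comparison and -1.19 in the second, beside -0.02 and -0.01 over all tested genes. These 2 comparisons share no mouse.

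**Figure D1:**
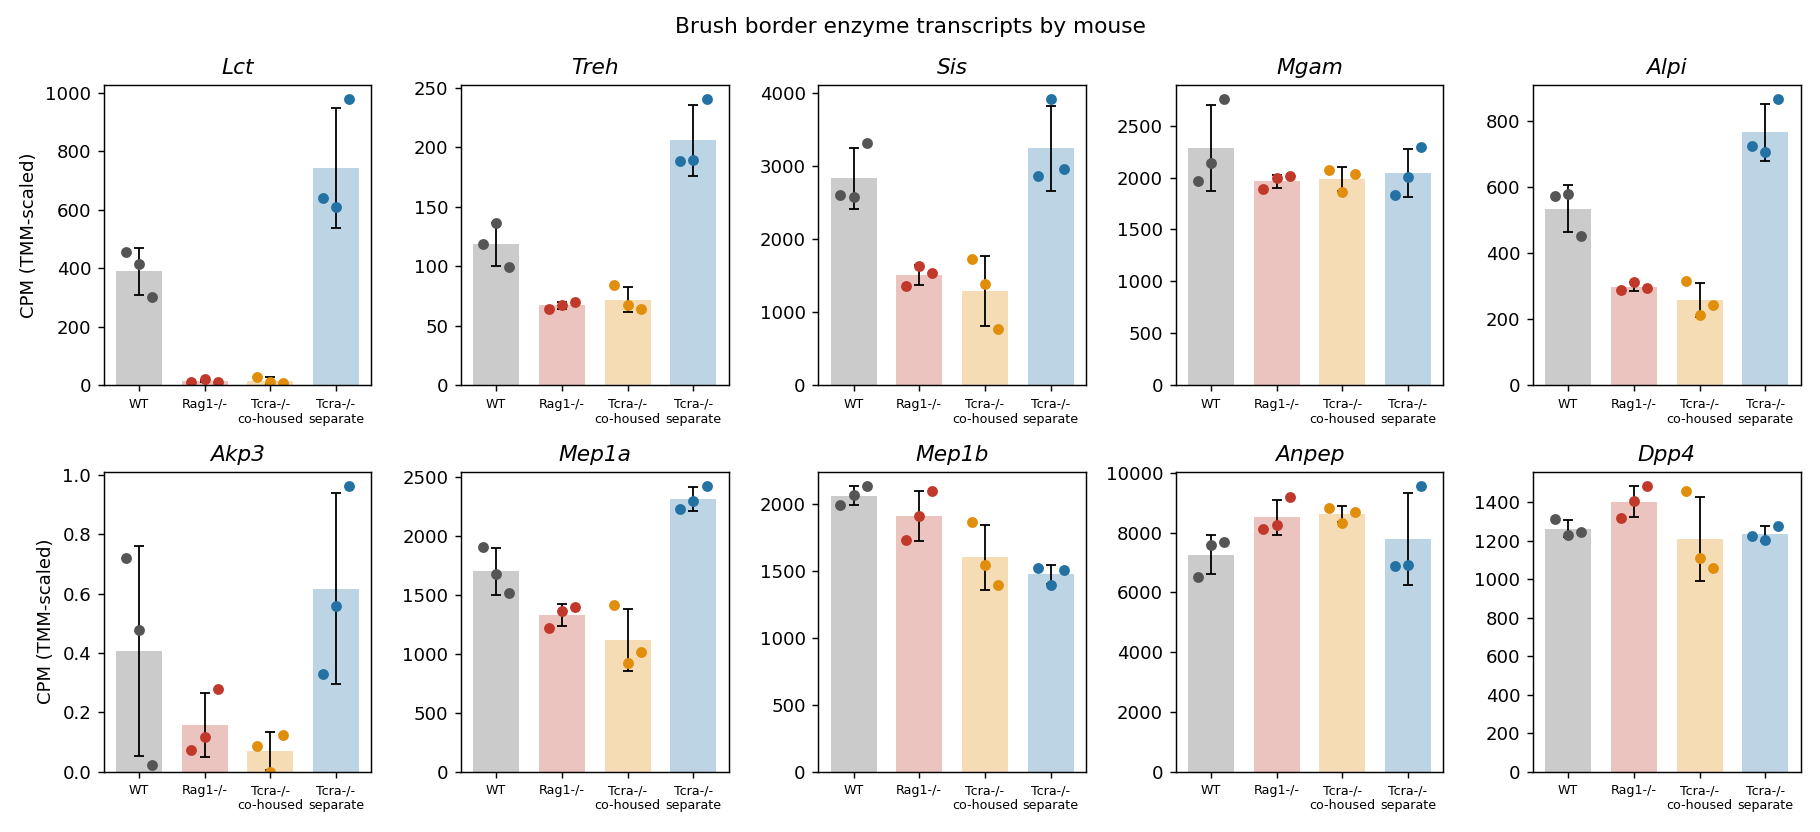
Level of each of the 10 transcripts in CPM (y axis, linear, from 0, a separate scale per gene) in every mouse (points) of the 4 groups (x axis), with bars for group means and error bars for SD, n = 3. The 3 mice labelled Rag1-/- and the 3 co-housed Tcra-/- mice lie below every wild type and separately housed mouse for Lct, Treh, Sis, Alpi and Mep1a, while the groups overlap for Mgam. The share of all tested genes with this split was not counted.

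Lct encodes lactase, which splits milk sugar, and lies on mm9 chromosome 1 from 130181341 to 130224895. Its level was 456, 413 and 299.5 CPM in the wild type mice and 9.85, 19.4 and 11.9 CPM in the mice labelled Rag1-/-. Co-housed Tcra-/- mice had 28.1, 9.76 and 5.47 CPM, and separately housed Tcra-/- mice 639, 610.1 and 978 CPM. The 6 libraries of the low groups thus did not overlap with the 6 of the high groups, and the lowest wild type mouse was above the highest low one. Groups are named low and high here by these same levels, and the share of all tested genes with this split was not counted. Lct was 28.4-fold lower in mice labelled Rag1-/- than in wild type (log2 fold change -4.83, SE 0.62, adjusted p = 0.000447). It was 51.8-fold lower in co-housed than in separately housed Tcra-/- mice (-5.70, SE 0.64, adjusted p = 9.93e-05). No other member differed by as much in either comparison. The co-housed mouse TCRaCox3155 was highest of its group, and without it the second value was -6.60. Co-housed mice were also below wild type (-4.77, SE 0.62, adjusted p = 0.000591), and without TCRaCox3155 that value was -5.67. In a fit to these 2 groups only, the adjusted p was 0.0131. Separately housed Tcra-/- mice all lay above all wild type mice, but the difference was not called (0.93, SE 0.52, adjusted p = 0.241).

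Treh encodes trehalase, which splits the fungal and insect sugar trehalose (mm9 chromosome 9, 44481321 to 44494387). Wild type mice had 119, 136 and 99.4 CPM and mice labelled Rag1-/- 64.2, 67.1 and 69.8 CPM. The Tcra-/- mice had 84.2, 67.0 and 64.3 CPM when co-housed and 188, 189 and 240.3 CPM when separately housed. Wild type mice lay between the 2 low groups and the separately housed mice, with no overlap on either side. Treh fell 1.76-fold in mice labelled Rag1-/- (log2 fold change -0.82, SE 0.13, adjusted p = 0.000278) and was 2.87-fold lower in co-housed than in separately housed Tcra-/- mice (-1.52, SE 0.13, adjusted p = 5.67e-07). It was the only member called higher in separately housed Tcra-/- mice than in wild type (0.80, SE 0.13, adjusted p = 0.000539).

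Sis encodes sucrase-isomaltase, which splits sucrose and starch fragments (mm9 chromosome 3, 72692482 to 72770788). Wild type mice had 2611, 2575 and 3314 CPM and mice labelled Rag1-/- 1356, 1632 and 1538 CPM. Levels in Tcra-/- mice were 1721, 1379 and 771 CPM when co-housed and 2869, 3918 and 2957 CPM when separately housed. The low and high groups again did not overlap, but co-housed mice spread 2.23-fold from lowest to highest. Sis was 2.52-fold lower in co-housed than in separately housed Tcra-/- mice (log2 fold change -1.33, SE 0.26, adjusted p = 0.00167), and in a fit to these 2 groups only the adjusted p was 0.0142. In mice labelled Rag1-/- the difference from wild type was -0.91 (SE 0.26, adjusted p = 0.0217) and was not called. A fit to those 2 groups only gave an adjusted p of 0.000102 there, and DESeq2 gave 0.00414.

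Mgam encodes maltase-glucoamylase, the closest relative of Sis, which releases glucose from starch fragments (mm9 chromosome 6, 40578830 to 40719122). Its levels ran from 1833 to 2756 CPM over the 12 mice, and all 4 groups overlapped. No comparison called it. Its log2 difference was -0.22 (SE 0.11, 95% interval -0.46 to 0.02, adjusted p = 0.155) in mice labelled Rag1-/- against wild type. Co-housed differed from separately housed Tcra-/- mice by -0.04 (SE 0.11, 95% interval -0.28 to 0.20, adjusted p = 0.789). Scaled to library size alone, the first difference was called, at an adjusted p of 0.00791.

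Alpi encodes intestinal alkaline phosphatase (mm9 chromosome 1, 88994577 to 88998181). In wild type mice it reached 573, 580.0 and 452 CPM, in mice labelled Rag1-/- 288, 314 and 294 CPM. The Tcra-/- mice had 315, 214 and 244 CPM when co-housed and 725, 708 and 868 CPM when separately housed. Each wild type mouse lay above all 6 mice of the low groups and below all separately housed mice. Alpi was 1.79-fold lower in mice labelled Rag1-/- than in wild type (log2 fold change -0.84, SE 0.13, adjusted p = 0.000255) and 2.98-fold lower in co-housed than in separately housed Tcra-/- mice (-1.57, SE 0.14, adjusted p = 4.53e-07).

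Akp3, a second intestinal alkaline phosphatase gene known as the duodenal form in mice, lies 23.4 kb from Alpi and had 0 to 44 reads per library. Its CPM was 0.720, 0.476 and 0.0224 in wild type mice, 0.0735, 0.118 and 0.277 in mice labelled Rag1-/-, and 0.329, 0.559 and 0.962 in separately housed mice. Co-housed mice had 0.0857, 0 and 0.124 CPM. The count of 0 allows up to 0.0686 CPM in that mouse, a limit of 3 reads that covers counting error only. The difference between co-housed and separately housed mice (log2 fold change -3.14, SE 0.95, adjusted p = 0.0138) was not called, but it was by DESeq2 (0.00289) and in a fit to these 2 groups only (0.00324). Of the 50-base windows of Akp3 transcripts, 2.15% also occur in Alpi, and the treatment of reads with more than 1 match is not given, so some of these few reads may belong to Alpi.

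Mep1a and Mep1b encode the alpha and beta subunits of meprin, a metalloprotease in which the beta subunit anchors the alpha subunit to the membrane. Mep1a (mm9 chromosome 17, 43611278 to 43639722) had 1906, 1674 and 1513 CPM in wild type mice and 1219, 1364 and 1398 CPM in mice labelled Rag1-/-. Co-housed Tcra-/- mice had 1413, 925 and 1014 CPM and separately housed mice 2222, 2296 and 2421 CPM. Its levels thus ordered the groups as those of Alpi did. Mep1a was 2.07-fold lower in co-housed than in separately housed Tcra-/- mice (log2 fold change -1.05, SE 0.13, adjusted p = 1.26e-05). Mice labelled Rag1-/- all lay below all wild type mice, but the difference was not called (-0.36, SE 0.13, adjusted p = 0.0523). Scaled to library size alone it was called (adjusted p = 0.00274), as it was in a fit to these 2 groups only (0.00992).

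Mep1b (mm9 chromosome 18, 21230845 to 21258700) followed another order. Wild type mice had 1989, 2063 and 2132 CPM and mice labelled Rag1-/- 1727, 1906 and 2099 CPM. Co-housed Tcra-/- mice had 1866, 1543 and 1394 CPM and separately housed mice 1518, 1394 and 1507 CPM. The separately housed mice, highest for Mep1a, were lowest by mean for Mep1b, although they overlapped with the co-housed mice. In separately housed Tcra-/- mice Mep1b was lower than in wild type (log2 fold change -0.48, SE 0.10, adjusted p = 0.00225), a call lost without the separately housed mouse TCRaSepxT3 (adjusted p = 0.0137) or the wild type mouse WTB6x3167 (0.0103). Neither stated comparison called it (-0.11, SE 0.10, adjusted p = 0.448 and 0.12, SE 0.10, adjusted p = 0.332).

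Per length, the ratio of Mep1a to Mep1b was 0.646 ± 0.0977 (SD, n = 3) in wild type mice, 0.544 ± 0.0204 in mice labelled Rag1-/-, 0.543 ± 0.0653 in co-housed and 1.23 ± 0.0750 in separately housed Tcra-/- mice. Only the separately housed mice had more Mep1a than Mep1b transcript per length, and each of the 3 did. The ratio of Sis to Mgam was 1.37 ± 0.0782 in wild type and 1.77 ± 0.371 in separately housed mice, with every mouse above 1. It was 0.845 ± 0.0563 in mice labelled Rag1-/- and 0.716 ± 0.263 in co-housed mice, with every mouse below 1. Sis was thus the more abundant of these relatives per length in 2 groups and Mgam in the other 2. A ratio within a library does not depend on how libraries are scaled, and it shows unequal change of a pair, not which of them changed.

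**Figure D2:**
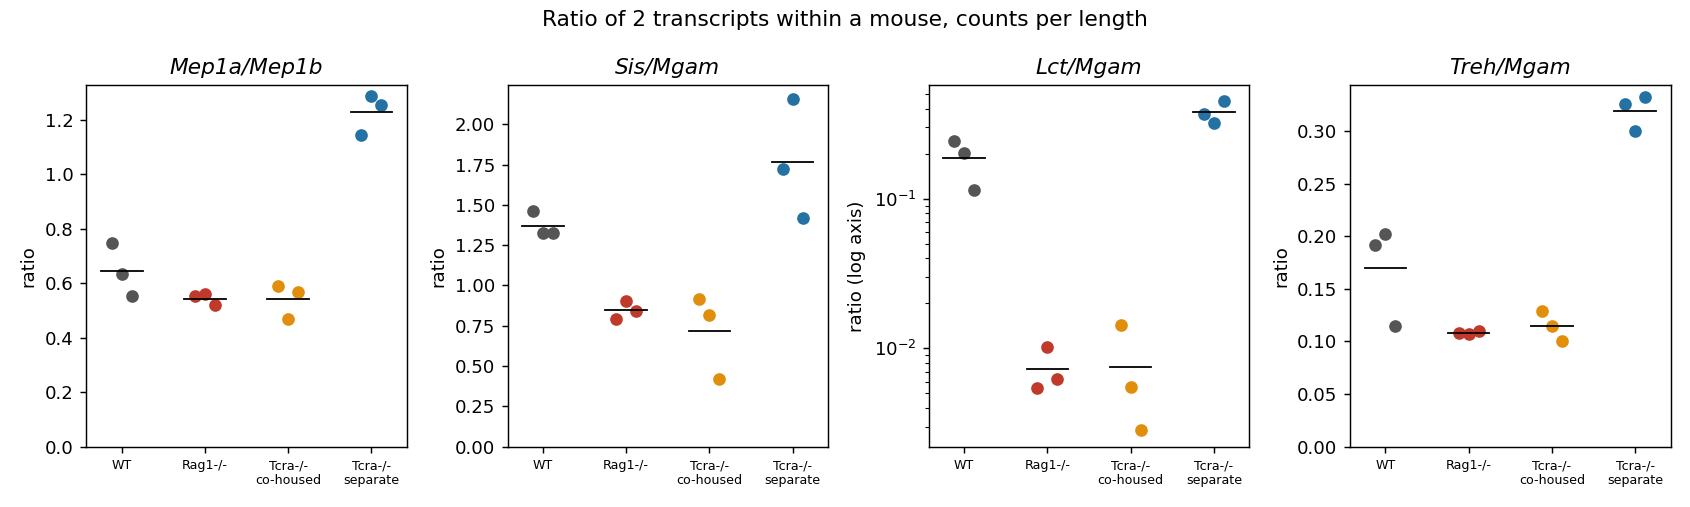
Ratio of 2 transcripts within each mouse, from counts per length (y axis, a separate scale per panel), by group (x axis), with points for mice, lines for group means and a log axis for Lct to Mgam only. Sis to Mgam lies between 0.418 and 0.914 in mice labelled Rag1-/- and co-housed Tcra-/- mice and between 1.33 and 2.16 in the other 6, and Mep1a to Mep1b is above 1 in the 3 separately housed mice only.

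Anpep encodes aminopeptidase N, which removes residues from the amino end of peptides (mm9 chromosome 7, 86966689 to 86987238). Wild type mice had 6516, 7573 and 7695 CPM and mice labelled Rag1-/- 8114, 8251 and 9188 CPM. Levels in Tcra-/- mice were 8837, 8337 and 8701 CPM when co-housed and 6879, 6917 and 9564 CPM when separately housed. Mice labelled Rag1-/- and co-housed mice all lay above all wild type mice, but the differences of 0.23 (SE 0.11, 95% interval -0.01 to 0.47, adjusted p = 0.145) and 0.25 (SE 0.11, 95% interval 0.00 to 0.49, adjusted p = 0.120) were not called. Co-housed differed from separately housed Tcra-/- mice by 0.15 (SE 0.11, adjusted p = 0.300). Without the separately housed mouse TCRaSepxT4, the highest of the 12, that difference was 0.32 and was called (adjusted p = 0.00826).

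Dpp4 encodes dipeptidyl peptidase, which cuts pairs of residues after proline or alanine and degrades incretin hormones (mm9 chromosome 2, 62168130 to 62250288). Its levels ran from 1228 to 1313 CPM in wild type mice, 1319 to 1483 in mice labelled Rag1-/-, 1059 to 1455 in co-housed and 1205 to 1278 in separately housed Tcra-/- mice. No comparison called it. The log2 difference was 0.15 (SE 0.10, adjusted p = 0.276) in mice labelled Rag1-/- against wild type and -0.03 (SE 0.10, adjusted p = 0.805) between the Tcra-/- groups. T cells also carry this protein, as CD26, and the summed T cell markers were 86.8 to 132 CPM in wild type mice and 9.40 to 13.1 CPM in mice labelled Rag1-/-. The part of T cells in the Dpp4 level was not tested.

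**Figure D3:**
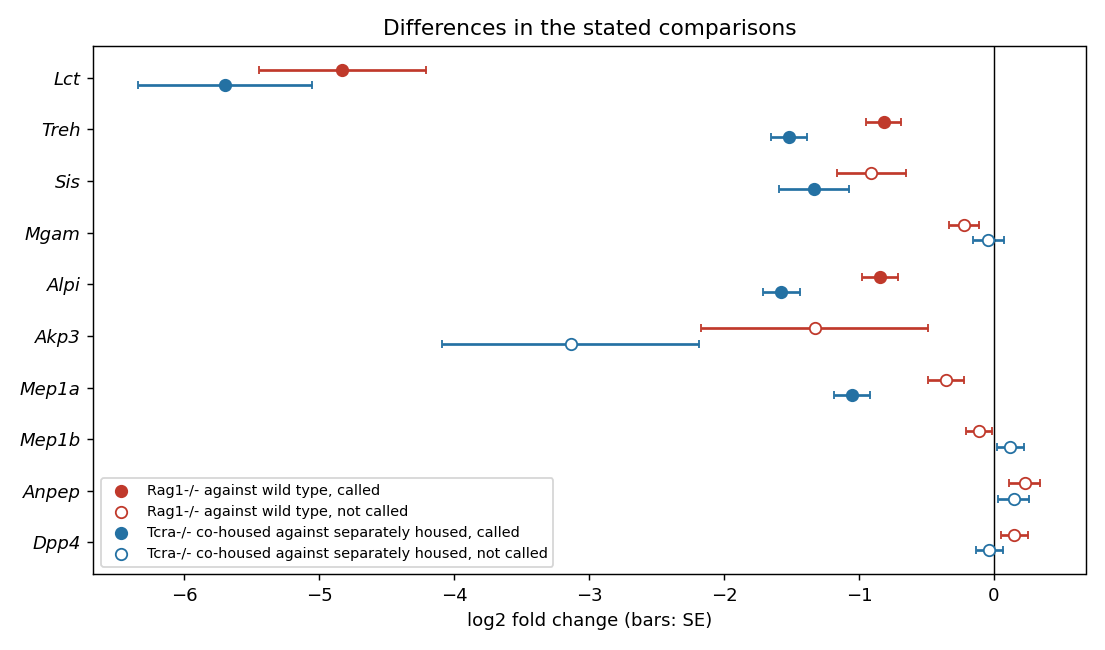
Log2 fold change of each of the 10 genes (x axis) in the 2 stated comparisons, with points for estimates, filled where called, and bars for SE. Lct stands at -4.83 and -5.70, Treh, Alpi and Sis lie between -0.82 and -1.57 in both, and Mgam, Anpep, Dpp4 and Mep1b lie within 0.25 of 0.

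Each Tcra-/- group was also set beside wild type mice, comparisons that share their mice with the stated ones. Co-housed Tcra-/- mice had 5 of the 10 genes called lower, Lct, Treh, Sis, Alpi and Mep1a, and none higher, where 9.19% of all tested genes were called lower and 9.34% higher, 18.5% in all. Alpi differed by -1.06 (adjusted p = 5.35e-05), Treh by -0.72 (0.000931), Mep1a by -0.60 (0.00297) and Sis by -1.13 (0.00813). The Sis call was lost without the co-housed mouse TCRaCox3156 (adjusted p = 0.0290) or any of the wild type mice WTB6x3159, WTB6x3160 and WTB6x3167 (0.0184, 0.0195 and 0.0302). The Mep1a call was lost without the co-housed mice TCRaCox3156 or TCRaCox3157 (0.0141 and 0.0163) or the wild type mice WTB6x3159 or WTB6x3160 (0.0172 and 0.0108). Both were also lost in a fit to these 2 groups only (0.0365 and 0.0207), and Sis also with epithelium scaling (0.0123) and with no filter (0.0153). Mep1b was not called (-0.36, adjusted p = 0.0113), but it was without the co-housed mouse TCRaCox3155 (-0.49, adjusted p = 0.00116), with library size alone (0.000577), with no filter (0.00826) and by DESeq2 (0.00236). Akp3 was not called either (-2.53, adjusted p = 0.0729), but without the wild type mouse WTB6x3167 it was (-3.09, adjusted p = 0.00696).

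Separately housed Tcra-/- mice against wild type gave 1 call higher, Treh, and 1 lower, Mep1b, where 6.06% of all tested genes were called higher and 7.70% lower, 13.8% in all. Alpi (0.52, SE 0.13, adjusted p = 0.0113) and Mep1a (0.45, SE 0.13, adjusted p = 0.0229) were not called, but both were by DESeq2 (0.00144 and 0.00726), with epithelium scaling (0.000822 and 0.00289) and in a fit to these 2 groups only (0.00407 and 0.00401), and Alpi also with library size alone (0.00607). Separately housed mice lay above wild type without overlap for 4 of the 10 genes, Alpi, Lct, Treh and Mep1a, as did 20.9% of all tested genes.

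None of the 10 genes was called between mice labelled Rag1-/- and co-housed Tcra-/- mice by edgeR or DESeq2, where edgeR called 2.89% of all tested genes. Dpp4 (0.21, adjusted p = 0.271) and Mep1b (0.25, adjusted p = 0.174) were the 2 with an unadjusted p under 0.05. The intervals leave room for differences: the 95% interval was -1.35 to 1.23 for Lct, -0.34 to 0.79 for Sis, -0.07 to 0.50 for Alpi and -0.38 to 0.18 for Treh. Against separately housed Tcra-/- mice, the mice labelled Rag1-/- had 5 genes called lower, Lct (-5.76), Treh (-1.62), Alpi (-1.36), Sis (-1.11) and Mep1a (-0.80), and 1 higher, Mep1b (0.38), where 18.1% of all tested genes were called lower and 18.0% higher, 36.1% in all. There the Sis call was lost without RAG1x3163, RAG1x3164, RAG1x3168, TCRaSepxT3 or TCRaSepxT4, with adjusted p-values of 0.0140 to 0.0240, and with no filter (0.0106). The Mep1b call was lost without RAG1x3164, RAG1x3168, TCRaSepxT2, TCRaSepxT3 or TCRaSepxT4, with 0.0121 to 0.0338, and when scaled to library size alone, with 0.0552.

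Whether the 2 stated differences themselves differed in size was tested as well. None of the 10 genes was called by edgeR, while 4.61% of all tested genes were called higher and 7.42% lower. Alpi (difference 0.73, SE 0.19, adjusted p = 0.0127), Treh (0.70, SE 0.18, adjusted p = 0.0143) and Mep1a (0.69, SE 0.19, adjusted p = 0.0153) were the 3 with an unadjusted p under 0.05, each with the more negative value between the Tcra-/- groups. DESeq2 called the same 3 genes, as did edgeR with epithelium scaling or without the co-housed mouse TCRaCox3155. With library size alone it called Alpi, and without the wild type mouse WTB6x3160 it called Treh. For Lct the difference was 0.87 (SE 0.77, adjusted p = 0.490).

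Other genes of the brush border were described from lists chosen by function. The counts of these lists are to be read beside the shares of all tested genes. In mice labelled Rag1-/- against wild type, 11.5% were called lower and 9.42% higher. Between the Tcra-/- groups, these shares were 17.7% and 21.1%. Of 16 further surface hydrolases listed, 13 were tested, and of these 9 fell in mice labelled Rag1-/- against wild type and 11 in co-housed against separately housed Tcra-/- mice, and none rose. Their median log2 fold changes were -0.91 and -1.08. Xpnpep2, a membrane aminopeptidase for bonds before proline, fell by 1.01 (adjusted p = 2.83e-05) and 1.41 (5.97e-07) on the log2 scale. Dpep1, a dipeptidase, fell by 0.71 (8.14e-05) and 0.98 (1.75e-06). Enpep and Ggt1, named after their values were seen, were the 2 not called between the Tcra-/- groups, at -0.01 (adjusted p = 0.956) and -0.02 (0.870). Alppl2, a further alkaline phosphatase gene 8.07 kb from Alpi, was at 2.26 CPM in wild type mice and fell by 1.27 between the Tcra-/- groups (0.000560). Alpl, the tissue-nonspecific form and the other of the 2 relatives listed, rose by 1.86 there (0.00514), at levels below 1 CPM in every mouse, and neither was called in mice labelled Rag1-/-.

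Among 13 transporters of sugars, amino acids and peptides, 7 fell and 3 rose in the first comparison, and 8 fell and 1 rose in the second. Slc2a2, the basolateral glucose transporter GLUT2, fell in both, with log2 fold changes of -4.44 (adjusted p = 3.15e-05) and -4.80 (1.05e-05). Slc15a1, which takes up dipeptides and tripeptides, fell by 0.85 (8.04e-05) and 1.63 (8.61e-08). Slc36a1, a proton-coupled amino acid transporter, rose by 1.31 (0.000344) and 0.90 (0.00213). Of 16 genes of microvillus structure, 6 fell and 1 rose in the first comparison and 10 fell in the second, with medians of -0.29 and -0.36. Pdzk1, a scaffold of membrane transporters, fell by 1.58 (0.000401) and 2.22 (2.02e-05), and Myo7b, a myosin of the microvillus tip links, by 0.58 (0.000204) and 1.01 (4.02e-07).

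Among 19 tested transcription factors of enterocytes, 4 rose and 2 fell in the first comparison, beside 9.42% and 11.5% of all tested genes. In the second, 3 rose and 8 fell, beside 21.1% and 17.7%. The 2 that fell in the first and the 3 that rose in the second did not exceed these shares. Prdm1, known as a repressor of adult enterocyte genes in the suckling gut, rose by 0.40 in the first (adjusted p = 0.00886) and 1.52 in the second (2.55e-08). Smad4, a mediator of TGF-beta signals, rose by 1.05 (1.49e-07) and 0.93 (2.24e-07), and Elf3, an epithelial factor, by 0.87 (4.23e-06) and 1.03 (3.68e-07). Ppara, a receptor for fatty acids, fell by 0.62 (0.000443) and 1.59 (2.05e-08). Creb3l3, a factor of lipid metabolism, fell as well, with log2 fold changes of -0.88 (0.00111) and -1.50 (9.34e-06). Hnf4g, a nuclear receptor of enterocytes, fell by 1.00 between the Tcra-/- groups (6.10e-07).

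**Figure D4:**
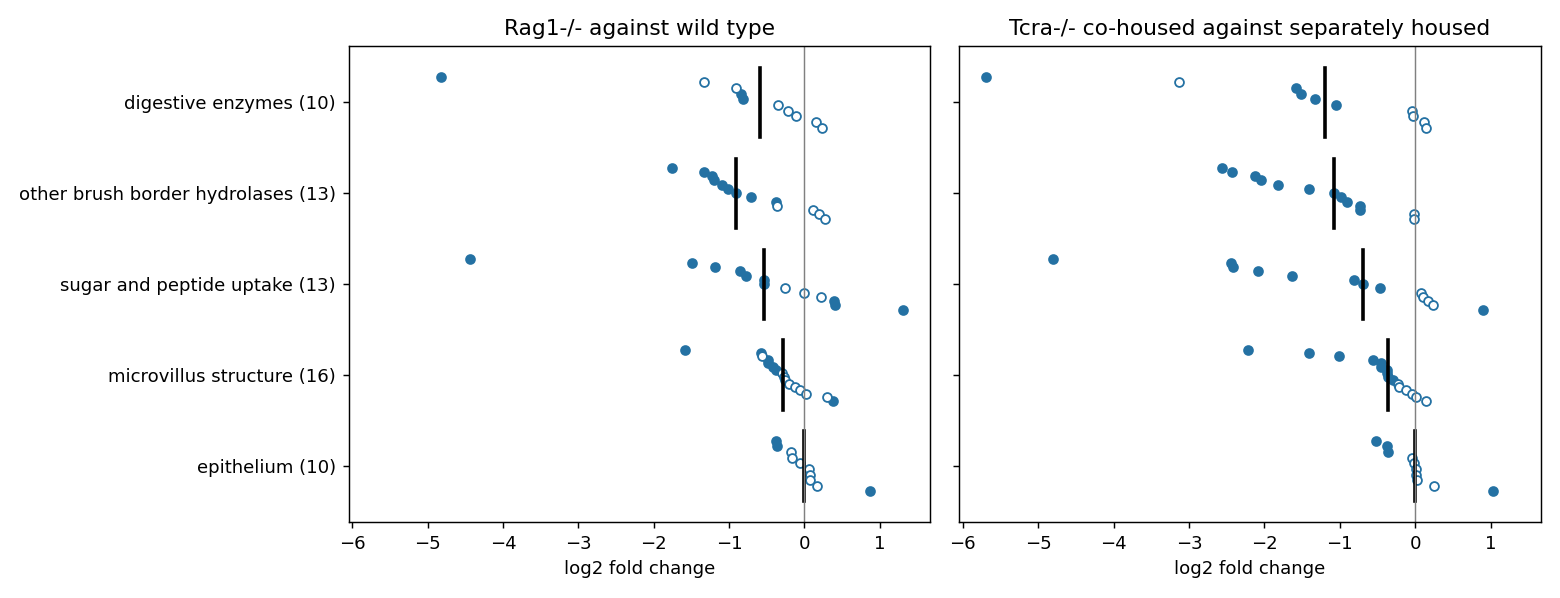
Log2 fold change (x axis) of each tested gene (dots) in lists of brush border and cell type genes (y axis, number of genes in brackets) in the 2 stated comparisons (panels), filled where called and open where not, with a black line at each list's median. The medians of the 10 digestive enzymes are -0.59 and -1.19, those of the further hydrolases -0.91 and -1.08, and those of the epithelium list lie at 0.00 in both.

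The summed CPM of 10 epithelial genes was 17023 to 18122 in wild type, 16098 to 17154 in mice labelled Rag1-/-, 15705 to 17244 in co-housed and 16454 to 17808 in separately housed mice, so the Tcra-/- groups overlapped and mice labelled Rag1-/- overlapped with wild type. Of the 10, 2 fell and 1 rose in the first comparison, beside 11.5% and 9.42% of all tested genes. In the second, 3 fell and 1 rose, beside 17.7% and 21.1%. Epcam and Vil1 fell by 0.36 (adjusted p = 0.00325) and 0.37 (0.00334) in the first and by 0.36 (0.00171) and 0.37 (0.00198) in the second, where Krt18 also fell by 0.51 (1.89e-05), and Elf3, named above, was the gene that rose in both. Scaled to this list, 3 members were still called in the first comparison and 5 in the second. Markers of lymphocytes did not follow the enzymes, which were low in mice labelled Rag1-/- and in co-housed mice. T cell markers fell for 10 of 10 genes in the first comparison and rose for 8 of 10 in the second, where the summed CPM was 32.5 to 68.9 in co-housed and 13.6 to 14.2 in separately housed mice. B cell markers fell for 8 of 8 genes and rose for 4 of 8. Myeloid markers rose for 1 of 9 genes in the first, near the 9.42% of all tested genes, and for 8 of 9 in the second, beside 21.1%, and were 220 to 350 CPM in co-housed and 113 to 142 in separately housed mice. The part of these cells in the enzyme levels was not tested.

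Genes marking positions along the crypt and villus were counted as well. Of 8 crypt genes, 1 rose in the first comparison, near the share of all tested genes called higher (9.42%), and 4 in the second (beside 21.1%), among them Ccna2, a cyclin, by 0.42 (adjusted p = 0.00230) and 1.15 (7.59e-08). Of 9 villus tip genes, 2 fell and 1 rose in the first, beside 11.5% and 9.42% of all tested genes, and 5 fell in the second, beside 17.7%. Their median log2 fold changes were 0.01 and -0.44. The 2 that fell in the first also stand in other lists. They were Creb3l3, named above, and Nt5e, a surface nucleotidase of the hydrolase list that fell by 1.33 (0.00914) and 2.56 (0.000136). Egfr rose in the first, by 0.30 (0.00729). Of 6 genes of the villus base, 3 rose and 1 fell in the first, beside 9.42% and 11.5% of all tested genes. In the second, 3 rose and 2 fell, beside 21.1% and 17.7%. The risers were Il18, a cytokine, and the antimicrobial lectins Reg3g and Reg3b. Ccl25 fell by 0.42 (0.000777) and 0.32 (0.00392), and Reg1 fell by 1.42 in the second (0.000163). Nlrp6 was not called in either. The summed CPM of the list was 14145 to 26058 in wild type, 99332 to 101996 in mice labelled Rag1-/-, 79466 to 107417 in co-housed and 4354 to 9742 in separately housed mice. Most of this sum was Reg3b and Reg3g, with means of 60550 and 39263 CPM in mice labelled Rag1-/- and 12094 and 6155 CPM in wild type, so it does not describe the list as a whole. With library size alone the median log2 fold change of all tested genes moved from -0.02 to -0.19 in the first comparison and from -0.01 to -0.12 in the second. Whether villus position has a part in the enzyme levels was not tested.

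The genes whose log2 CPM followed a member most closely over the 12 libraries were picked by Pearson's r among 12240 genes. The points share their groups and libraries, so these values are descriptions. Lct was followed by Cyp4v3 (r = 0.997), Slc5a11 (0.994) and Lama3 (0.993), Treh by Mfsd7b (0.994), Naaladl1 (0.992) and Nudt4 (0.991), and Alpi by Acbd4 (0.995), Plb1 (0.995) and Hist1h2bc (0.991). Mep1a was closest to Cyp2c55 (0.980), Gm5485 (0.978) and Slc47a1 (0.978), and Sis to Slc35a5 (0.974), Ogt (0.967) and Clca3 (0.964). Mgam had no such close follower, and its highest value was 0.781, with Malat1. Among the members, r was 0.968 for Alpi with Lct and 0.969 for Alpi with Mep1a. Mep1a and Mep1b had an r of -0.08 over the 12 libraries and 0.624 once each group's mean was subtracted.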

How the data were processed

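The deposited table holds raw read counts per gene, per the file headers and its whole-number values, with the length of merged exons in bases that the authors' counting tool wrote, used here only for levels per kilobase. Per the submitters' processing notes, TopHat2 2.0.11 with Bowtie2 2.2.2.0 placed the reads on mm9, and they were counted with featureCounts of Subread 1.4.5-p1, and the authors tested with DESeq2 1.12.3. The labels' protocols name Trizol and a stranded mRNA kit. Not given in the sources used here are the annotation, the strand setting of the counting and the treatment of reads with several matches. No member shares exonic bases with another gene of the table.

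Counts were analysed in R 4.3.3 with edgeR 4.0.16: filterByExpr over the 4 groups kept 15866 of 23284 genes, TMM factors (trimmed mean of M-values) lay between 0.926 and 1.07, and a robust quasi-likelihood model with 1 term per group was fitted to all 12 libraries (8 residual degrees of freedom). Tests were two-sided, and a gene was called at an adjusted p under 0.01 (Benjamini-Hochberg over all 15866 genes). The standard error (SE) is the log2 fold change divided by the square root of F, and the 95% interval uses the gene's total degrees of freedom. CPM are counts divided by the library total after TMM scaling. The script was tested on simulated data. Library totals of 37061276 to 50581616 counts leave all members but Akp3 with at least 221 reads in each library. Reads carry no molecular identifiers, so they may not be independent molecules. No 2 libraries had identical counts. The labels give no batch. Separately housed mice are labelled T2, T3 and T4, while mice of the other groups carry numbers from 3155 to 3168. What these series stand for is not given, so any difference they mark cannot be told apart from separate housing.

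All 10 members are named, with up to 3 called genes per direction of each other list and stated comparison, by smallest adjusted p, and 3 genes of highest r per member with mean log2 CPM (prior count 2) over 1. Some genes that this rule names are not reported here. The members, the 20 other lists and the tests were chosen with earlier results of these data known. The lists not described above cover ileal and proximal segments, smooth muscle, fibroblasts, Paneth and goblet cells, acinar pancreas and colon. In the first comparison, 0 genes rose and 2 fell of 7 ileal genes, 1 and 2 of 7 proximal, 0 and 0 of 7 smooth muscle, 0 and 0 of 6 fibroblast, 1 and 0 of 6 Paneth, 0 and 1 of 7 goblet, 0 and 0 of 1 acinar and 0 and 0 of 2 colon genes tested. In the second, these were 1 and 3, 1 and 3, 0 and 1, 0 and 0, 1 and 0, 2 and 3, 0 and 0, and 0 and 1. Of all tested genes, 9.42% were called higher and 11.5% lower in the first comparison, and 21.1% and 17.7% in the second.

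Alternatives were other scalings (library size alone, relative log expression, the epithelium list), no filter, an adjusted p under 0.05, DESeq2 1.42.0, a fit to the groups compared only, and leaving out each mouse. Promoter windows came from RefSeq on GRCm38.p6, and shared transcript windows from GENCODE M21 transcripts.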

Additional observations from a re-analysis of the deposited data

How the results depend on the processing

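The numbers of members called were within 1.5 times the reported ones under most alternatives. In mice labelled Rag1-/- against wild type, 3 became 5 with library size alone and 5 in a fit to the groups compared only, and stayed 3 whichever mouse was left out. Co-housed against separately housed Tcra-/- mice gave 5 to 6 calls as each mouse was left out. Co-housed Tcra-/- mice against wild type gave 2 calls in place of 5 in a fit to those groups only, and 3 to 6 as each mouse was left out. Separately housed Tcra-/- mice against wild type gave 4 in place of 2 with epithelium scaling, at an adjusted p under 0.05, with DESeq2 and in a fit to those groups only, and 1 to 2 as each mouse was left out. The difference of the 2 stated differences gave 0 calls, but 1 with library size alone, 3 with epithelium scaling, 3 at an adjusted p under 0.05, 3 with DESeq2, and 0 to 3 as each mouse was left out. The causes were not tested. No paired analysis was possible because the groups share no mouse numbers.

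Signs turned only for differences that were not called. In mice labelled Rag1-/- against wild type, Dpp4 was -0.016 with library size alone. Between the Tcra-/- groups, epithelium scaling gave Mgam 0.016 and Dpp4 0.012, and leaving out each mouse gave Mgam -0.11 to 0.053, Dpp4 -0.19 to 0.055 and Mep1b -0.0030 to 0.21. Between co-housed Tcra-/- and wild type mice, Dpp4 was 0.032 with epithelium scaling and -0.22 to 0.025 as each mouse was left out. For separately housed against wild type mice, Dpp4 was 0.020 with epithelium scaling, and Anpep ran from -0.074 to 0.18 as each mouse was left out. Between mice labelled Rag1-/- and co-housed mice, relative log expression gave Mgam 0.0079 and Anpep 0.0067, and DESeq2 gave Mgam 0.0077 and Anpep 0.0065. Leaving out each mouse there gave Sis -0.039 to 0.49, Lct -0.45 to 0.84, Mgam -0.053 to 0.014, Treh -0.17 to 0.031 and Anpep -0.076 to 0.016. Against separately housed mice, Anpep was -0.024 with library size alone, and Mgam ran from -0.13 to 0.036 as each mouse was left out. For Anpep the difference of the 2 stated differences ran from -0.092 to 0.16 as each mouse was left out. Read depth limits only Akp3.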
